A study of Mus musculus with 6 samples.

Results

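The small CTD phosphatases are a family of nuclear enzymes that share their genes with the miR-26 microRNAs. Their 3 host genes *Ctdsp1*, *Ctdsp2* and *Ctdspl*, the relative *Ctdspl2*, and the repressor gene *Rest* with its corepressor gene *Rcor1* were taken by symbol from the count table, which gave 6 of 55341 listed genes. All 6 were measured in each of 6 libraries and passed the filter on low counts, as did 16017 genes in all. Sequencing was carried out on the aortic arch and thoracic aorta of mice at 8 weeks of age on a chow diet, 1 library for each of 3 miRNA-26b-/- mice (M2626, M2627 and M2628) and 3 miRNA-26b+/+ mice (M2629, M2630 and M2631). All mice were on the C57BL/6 background, given in the labels as C57BL/6NCrl.

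The miRNA-26b-/- allele lacks a short floxed stretch that holds the miR-26b hairpin within an intron of *Ctdsp1*. The Neo cassette had been removed with Flp, the stretch was deleted with CreERT2 and tamoxifen, and CreERT2 was then bred out. The targeted embryonic stem cells came from another inbred strain, the line was begun on a mixed background of that strain and C57BL/6, and how far the interval around *Ctdsp1* still carries its alleles is not given in the sources used here. The labels call the material endothelial cells of the aorta. The summed level of 7 smooth muscle markers was 31300 to 42200 CPM (reads of a gene relative to library size, scaled for composition), against 4610 to 8540 CPM for 7 markers of adventitial fibroblasts and 450 to 1690 CPM for 8 endothelial markers, so markers of the whole wall were present and not those of endothelium alone. Libraries held 25706728 to 33345037 counts. M2627 stood apart with 277 CPM of 10 sympathetic neuron markers, against 9.73 to 44.5 CPM in the other 5 libraries.

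Small CTD phosphatases remove phosphate from the tail (the C-terminal domain, CTD) of the large subunit of RNA polymerase II, and from other proteins including SMADs and REST. REST is a zinc finger repressor that binds the RE1 element of neuronal genes and keeps them silent outside the nervous system, with CoREST (the product of *Rcor1*), the demethylase LSD1, histone deacetylases and SIN3 as partners. Small CTD phosphatases are recruited with this complex to RE1 elements, and by taking phosphate off REST they slow its degradation. In zebrafish, miR-26b has been described to repress the host message from which it is made, *ctdsp2*, as neurons differentiate. The comparison of miRNA-26b-/- with miRNA-26b+/+ aortas therefore asks whether the host messages and the REST system differ when 1 of the 3 intronic microRNAs is missing.

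The mature 5p strands are shown first, since the shared seed (bases 2 to 8, in capitals) is what miR-26a and miR-26b have in common when they pair with a message. The sequences are those of RefSeq on GRCm38.p6.
miR-26b-5p (*Ctdsp1*): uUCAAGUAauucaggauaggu
miR-26a-5p (*Ctdspl* and *Ctdsp2*): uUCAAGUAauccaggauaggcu

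Counted from 1 at the 5′ end, miR-26b-5p differs from miR-26a-5p by U11C and U21C, and 19 of the 21 compared bases are identical. Both loci of miR-26a give the same 5p strand of 22 bases. The seed is one and the same in the 3 genes, so the strand lost in miRNA-26b-/- mice leaves the other two loci with an identical seed. The 3p strands, which come from the other arm of each hairpin, are shown because there the seeds part.
miR-26b-3p (*Ctdsp1*): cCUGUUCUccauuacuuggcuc
miR-26a-1-3p (*Ctdspl*): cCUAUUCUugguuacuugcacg
miR-26a-2-3p (*Ctdsp2*): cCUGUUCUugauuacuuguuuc

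On the 3p arm the seed of miR-26b is shared with miR-26a-2 and not with miR-26a-1. In the GRCm38 annotation the 3 hairpins lie on the strand of their hosts. *Mir26b* (ENSMUSG00000065468, chr1:74394310-74394394) lies in intron 4 of *Ctdsp1* (ENSMUSG00000026176, chr1:74391509-74397285), an intron of 564 bp, with 234 bp to the exon before it and 245 bp to the exon after it. *Mir26a-1* (ENSMUSG00000065513, chr9:119031796-119031885) lies in intron 5 of *Ctdspl* (ENSMUSG00000047409, chr9:118926453-119043998), which is 3283 bp long. *Mir26a-2* (ENSMUSG00000065430, chr10:126995530-126995613) lies in intron 5 of *Ctdsp2* (ENSMUSG00000078429, chr10:126978717-126999975). In the longest coding form this intron is 1946 bp long, and the hairpin lies 241 bp before the next exon. In another coding form of *Ctdsp2*, an exon overlaps the hairpin by 1 bp.

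**Figure D1:**
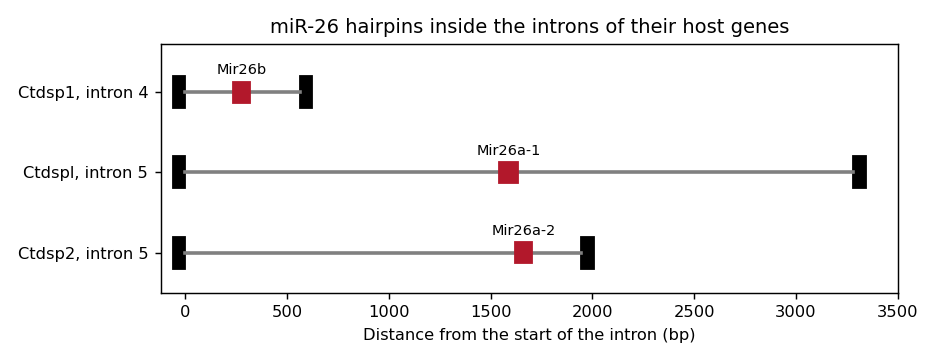
Position of each miR-26 hairpin (red) within the intron of its host gene (grey line), as distance in bp from the start of the intron. The longest coding form of each host is drawn. Black blocks mark where the flanking exons begin and are not drawn to the exons' length. The intron around Mir26b, at 564 bp, is the shortest of the 3.

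The hairpin genes themselves were almost silent in these libraries, which were made from long RNA. *Mir26b* received 0, 0 and 0 counts in miRNA-26b-/- mice and 0, 20 and 0 counts in miRNA-26b+/+ mice. *Mir26a-1* and *Mir26a-2* received 0 counts in all 6 libraries, which allows up to 3 counts per library, counting error only. These reads tell neither the genotype nor the amount of mature microRNA. No annotated exon of *Ctdsp1* overlaps the *Mir26b* hairpin, so no read over the hairpin alone was counted for *Ctdsp1*.

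The 3 host genes had higher mean levels in miRNA-26b-/- than in miRNA-26b+/+ mice, and none of the 6 genes passed the test. *Ctdsp1*, the host of miR-26b, had 201, 182 and 182 CPM in miRNA-26b-/- mice and 148, 166 and 180 CPM in miRNA-26b+/+ mice. The groups did not overlap, but only just: the lowest miRNA-26b-/- library had 181.8 CPM and the highest miRNA-26b+/+ library 179.5 CPM. The means were 189 ± 11.2 and 165 ± 15.6 CPM (SD, n = 3), and the log2 fold change was 0.20 with a standard error of 0.15 and an adjusted p of 0.866 by edgeR's quasi-likelihood test with Benjamini-Hochberg adjustment. On the fold scale this was 1.14 with a 95% interval of 0.923 to 1.42, which leaves room for a small fall as well as a rise of the message whose intron was edited.

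*Ctdspl*, the host of miR-26a-1 and a tumour suppressor candidate that acts on the retinoblastoma protein, had 101, 108 and 95.9 CPM in miRNA-26b-/- mice. In miRNA-26b+/+ mice it had 89.9, 77.0 and 78.5 CPM. Every miRNA-26b-/- library lay above every miRNA-26b+/+ library. The log2 fold change was 0.31 with a standard error of 0.16, the unadjusted p was 0.0719 and the adjusted p was 0.782 (edgeR's quasi-likelihood test, Benjamini-Hochberg adjustment). The fold was 1.24 with a 95% interval of 0.978 to 1.58, and the unadjusted p in the alternatives ran from 0.0532 without M2628 to 0.34 without M2627 and M2630.

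*Ctdsp2*, the host of miR-26a-2, was the highest of the phosphatases, with 422, 415 and 358 CPM in miRNA-26b-/- mice and 350, 361 and 384 CPM in miRNA-26b+/+ mice. The groups overlapped, because M2628 lay at the level of the miRNA-26b+/+ libraries. M2626 and M2627, in which *Ctdsp2* was highest, were also the libraries with the lowest endothelial marker sums. These were 450 and 470 CPM against 1190 to 1690 CPM in the other 4. *Ctdsp1* and *Ctdspl* were highest in the same libraries, though *Ctdsp1* in M2627 (182.5 CPM) and M2628 (181.8 CPM) nearly tied. The part of this in the values of the host genes was not tested. The log2 fold change of *Ctdsp2* was 0.13 with a standard error of 0.13 and an adjusted p of 0.930 (edgeR), and the 95% interval of the fold was 0.899 to 1.33. *Ctdspl2*, a relative with the same catalytic fold that hosts no miR-26 gene, had 16.3, 14.9 and 14.6 CPM against 13.1, 22.7 and 7.11 CPM. Its miRNA-26b-/- libraries lay close together inside the wide range of the miRNA-26b+/+ libraries, and its log2 fold change of 0.11 had a standard error of 0.38 and an adjusted p of 0.988 (edgeR). Without M2631 it was -0.23.

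*Rest* (ENSMUSG00000029249, chr5:77265491-77286432) had 29.7, 23.5 and 39.3 CPM in miRNA-26b-/- mice and 24.1, 14.9 and 29.7 CPM in miRNA-26b+/+ mice. The groups overlapped, with M2628 at the top and M2630 at the bottom. The log2 fold change was 0.41, with a standard error of 0.29 and an adjusted p of 0.860 (edgeR), and the 95% interval of the fold ran from 0.859 to 2.05. Leaving out 1 library moved the log2 fold change to 0.19 (without M2628 or M2630) and up to 0.63 (without M2631). *Rcor1* (ENSMUSG00000037896, chr12:111039351-111115901) had 49.4, 66.5 and 35.8 CPM against 67.7, 45.9 and 40.4 CPM. These 2 sets of values covered nearly the same range, and the log2 fold change was -0.01 with a standard error of 0.25 and an adjusted p of 0.997 (edgeR). Its sign turned in 4 of 16 alternatives, with values of -0.35 to 0.24.

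**Figure D2:**
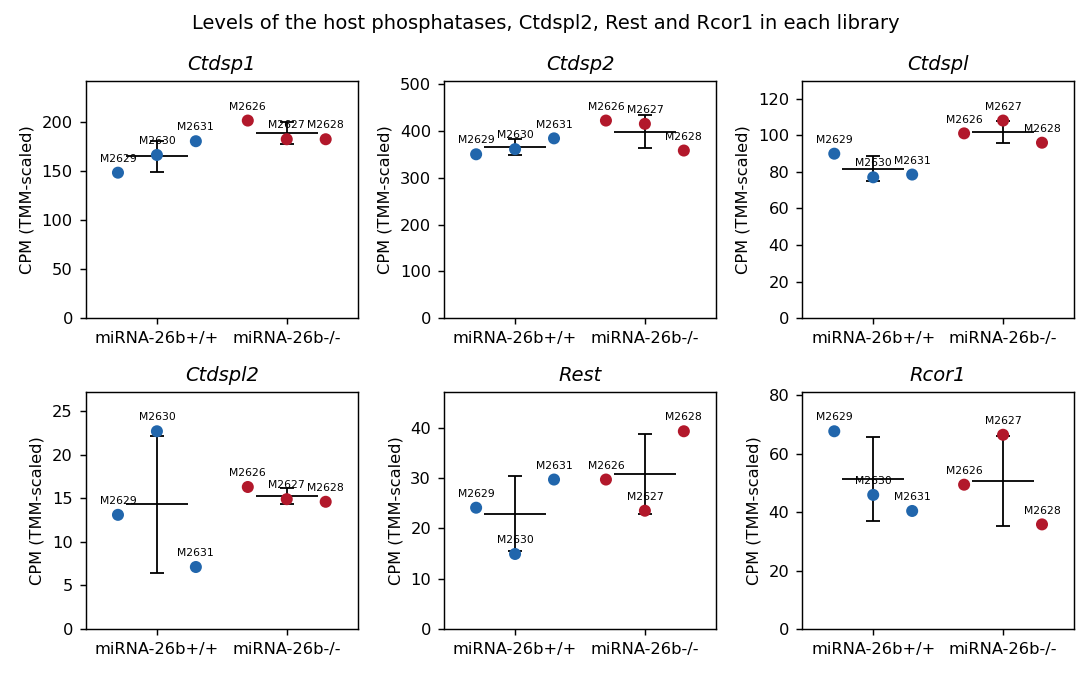
Level of each gene in CPM (y axis, linear from 0) in the 3 miRNA-26b+/+ libraries (blue) and the 3 miRNA-26b-/- libraries (red), with the mean and SD of each group in black. For Ctdsp1 and Ctdspl the red points all lie above the blue points, while for the other 4 genes the groups overlap.

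Over all 6 genes, 0 had an unadjusted p under 0.05 in either direction, where 6.46% of all genes tested had one (3.4% higher and 3.07% lower in miRNA-26b-/- mice). By DESeq2, limma voom, edgeR's likelihood ratio test and its earlier quasi-likelihood method the count was also 0, and in 16 alternatives no adjusted p of the 6 genes was under 0.05. Over all genes 1 passed the adjusted threshold, or 0.00624%. Groups that did not overlap, with miRNA-26b-/- higher, were seen in 2 of the 6 genes against 5.65% of all genes tested, and with miRNA-26b-/- lower in 0 of the 6 against 5.88%. The median log2 fold change of all genes tested was 0.01. For a single gene, the 3 by 3 design allows no two-sided p below 0.1 by exact permutation, which is the value of *Ctdsp1* and *Ctdspl*; *Ctdsp2* gave 0.3, *Rest* 0.5, *Ctdspl2* 0.8 and *Rcor1* 0.9 (exact permutation test of the difference of mean CPM).

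**Figure D3:**
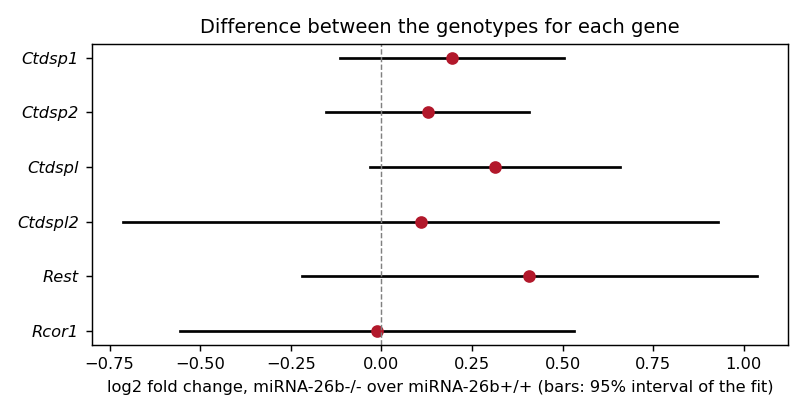
Log2 fold change of each gene between miRNA-26b-/- and miRNA-26b+/+ mice (x axis, points) with its 95% interval from edgeR's quasi-likelihood fit (bars). All 6 intervals include 0, and those of Ctdspl2, Rest and Rcor1 are wider than those of the 3 host genes.

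To set the genes side by side, levels were divided by exonic length (RPKM, the CPM per kilobase). *Ctdsp2* was the highest at a mean of 69.1 RPKM over the 6 libraries, followed by *Ctdsp1* at 53.0 and *Ctdspl* at 17.7 RPKM. *Rcor1* had 8.96, *Rest* 3.72 and *Ctdspl2* 1.6 RPKM. The order of the first 5 held in each of 6 libraries: *Ctdsp2* was 1.19 to 1.42 times *Ctdsp1*, *Ctdsp1* 2.57 to 3.56 times *Ctdspl*, *Ctdspl* 1.45 to 2.93 times *Rcor1*, and *Rcor1* 1.16 to 3.9 times *Rest*. *Rest* and *Ctdspl2* could not be put in order, since *Rest* was the higher in 5 libraries and the lower, at 0.842 times, in M2630. The repressor was thus a modest message in the aortic wall. Those of the host phosphatases *Ctdsp1*, *Ctdsp2* and *Ctdspl* were far more abundant per length, and that of *Ctdspl2* was not. Taken over all genes tested, *Ctdsp2* stood at percentile 97.9 of mean CPM and *Rest* at percentile 60.9.

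The make-up of the pool of the 4 phosphatase messages was then compared, which does not depend on library size. *Ctdsp2* made up 48.35, 49.34 and 46.52% of the summed RPKM in miRNA-26b-/- mice and 50, 49.36 and 49.91% in miRNA-26b+/+ mice. The groups did not overlap but nearly touched, at 49.34 and 49.36%, and the means of 48.07 ± 1.43 and 49.76 ± 0.346% (SD, n = 3) gave the smallest p possible, 0.1, in a two-sided exact permutation test. The difference of the means was -1.69 percentage points, and it was -2.32 without M2627 and -0.913 without M2628. *Ctdsp1* made up 37.75 ± 1.62 and 37.15 ± 1.78% (p = 0.6, exact permutation test). *Ctdspl* made up 13.07 ± 0.682 and 11.92 ± 1.54% (p = 0.4), and *Ctdspl2* 1.102 ± 0.0379 and 1.176 ± 0.654% (p = 0.8), both by exact permutation tests. M2629 of the miRNA-26b+/+ group had the highest *Ctdspl* share of all, 13.69%, so the groups overlapped on this scale although they did not in CPM.

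**Figure D4:**
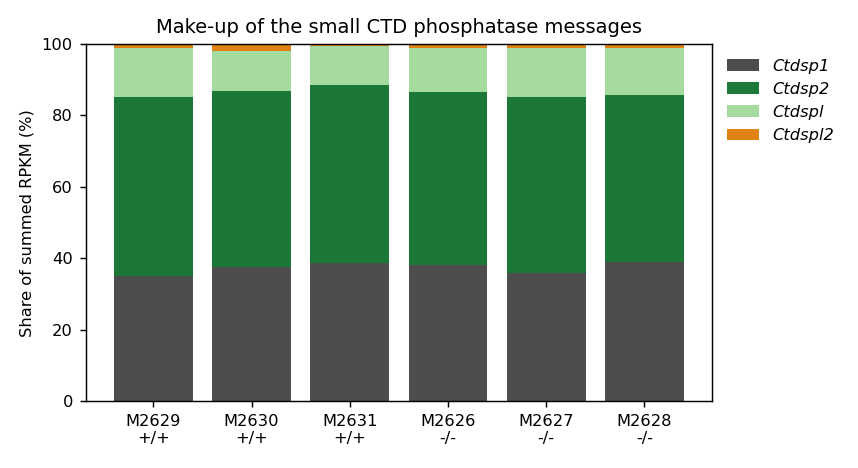
Share of each phosphatase in the summed RPKM of Ctdsp1, Ctdsp2, Ctdspl and Ctdspl2 (y axis, %) in each library, miRNA-26b+/+ at the left and miRNA-26b-/- at the right. Ctdsp2 takes 46.52 to 50% in every library and Ctdspl2 at most 1.856%.

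Across the 6 libraries, log2 CPM of *Ctdsp1* and *Ctdsp2* moved together with a Pearson r of 0.80 (Spearman 0.83), while *Ctdsp1* and *Ctdspl* had an r of 0.44 and *Ctdsp2* and *Ctdspl* one of 0.57. *Rest* had an r of 0.45 with *Ctdsp1* and -0.41 with *Rcor1*. The points share their libraries and library scaling, and a search over 9768 genes with at least 10 CPM finds high values in any case with 6 points. Closest to *Ctdsp1* were *Pomk*, a kinase of dystroglycan's sugar chain (r 0.984), *Adcy6*, an adenylyl cyclase (r 0.984), and *Mapk3*, the kinase ERK1 (r 0.983). Closest to *Ctdsp2* were *Slc41a3*, a magnesium transporter (r 0.995), *Ppp1r1b*, an inhibitor of protein phosphatase 1 (r 0.995), and *Cep63*, a centrosomal protein (r 0.988). For *Ctdspl* they were *Acadsb*, a dehydrogenase of branched-chain acyl-CoA (r 0.989), *Gm16596* (r 0.987) and *Sptssa*, a subunit of serine palmitoyltransferase (r 0.985). For *Rest* they were *Pecr*, a peroxisomal enoyl-CoA reductase (r 0.994), *Cmtm3*, a membrane protein (r 0.992), and *Mllt3*, a subunit of the super elongation complex (r 0.992).

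For each gene, the longest 3′ UTR in the annotation was scanned for sites of the shared 5p seed. A full 8mer site pairs with bases 2 to 8 and has an A opposite base 1 (TACTTGAA), a 7mer-m8 site has the 7 pairing bases alone (TACTTGA), and a 7mer-A1 site has 6 of them and the A (ACTTGAA). *Rest* and *Rcor1* each held 1 8mer, which 4.92% of 13464 tested genes with a 3′ UTR held, and *Rest* held a further 7mer-A1. *Ctdsp2* held a 7mer-m8 and a 7mer-A1, and *Ctdspl2* a 7mer-m8. *Ctdsp1* and *Ctdspl* held none, and 21.4% of the tested genes held at least 1 site of any kind. These shares are over genes of any 3′ UTR length. The 3′ UTRs scanned were 3014 bp (*Ctdspl2*) to 3986 bp (*Rcor1*) in the messages with a site, 1701 bp in *Ctdsp1* and 3349 bp in *Ctdspl*. The strongest site of each of these 4 messages is shown in its surroundings (GRCm38, forward strand, site in capitals), since these are the stretches at which any miR-26 5p strand would pair.
*Rest*, chr5:77283322-77283351: gcttagtaaatTACTTGAAgaatttgcctg
*Rcor1*, chr12:111114700-111114729: taagcacctgtTACTTGAAtattgtgttga
*Ctdsp2*, chr10:126997555-126997583: agtgttgctctTACTTGAtttgccaaatg
*Ctdspl2*, chr2:122012732-122012760: tgttgacaatgTACTTGAtcaggaattaa

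A match of letters is a description and not a site shown to work. Of the 4 messages with a site, the log2 fold changes were 0.41 for *Rest*, 0.13 for *Ctdsp2*, 0.11 for *Ctdspl2* and -0.01 for *Rcor1*; of the 2 without one they were 0.20 for *Ctdsp1* and 0.31 for *Ctdspl*. Groups did not overlap for the 2 host messages without a site, for *Ctdsp1* only just. The largest of these log2 fold changes was that of *Rest*, which holds an 8mer, and none of these genes passed the test. The part of the sites in these values was not tested. Over all genes tested, the 662 with an 8mer had a median log2 fold change of 0.02, and the 10583 with no site had 0.02 as well, with 6.04 and 6.29% of them at an unadjusted p under 0.05.

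The corepressors that REST brings to its sites showed few differences between the genotypes. All 22 listed genes of the REST corepressor complexes were tested, 0 were higher and 1 was lower at an unadjusted p under 0.05, and their median log2 fold change was -0.01. The 1 gene was *Ehmt1*, which encodes the histone methyltransferase GLP, with 30.8, 33.9 and 38.0 CPM in miRNA-26b-/- mice against 44.5, 48.1 and 50 CPM in miRNA-26b+/+ mice. Its log2 fold change was -0.47 with a standard error of 0.20, and its adjusted p was 0.740 (edgeR). The unadjusted p was under 0.05 in 11 of 16 alternatives, and not without M2626, M2627, M2630 or M2631. Groups did not overlap in 1 other gene, *Kdm1a*, which encodes LSD1 and is named after its values were seen, with 33.6, 30 and 36.5 CPM against 38.0, 48.6 and 46.2 CPM and an adjusted p of 0.782 (edgeR). Both shares, 1 of 22 and 2 of 22, are to be read against the 3.07% and 5.88% of all genes given above.

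REST is marked for destruction by the ubiquitin ligase SCF with its F-box protein β-TrCP, and spared by the deubiquitinases USP7 and USP15. Of the 7 genes of REST turnover 0 had an unadjusted p under 0.05 in either direction, and the median log2 fold change was -0.10. The most abundant were *Skp1a*, a core subunit of the ligase, with means of 126 ± 19.2 and 130 ± 13.3 CPM in miRNA-26b-/- and miRNA-26b+/+ mice, and *Fbxw11*, a β-TrCP gene, with 120 ± 13.8 and 127 ± 18.9 CPM (SD, n = 3). Among the other substrates of small CTD phosphatases, the SMADs, *Snai1* and *Rb1*, 0 of 6 had an unadjusted p under 0.05, with a median of -0.01. *Smad5*, a BMP effector, had 76.1 ± 8.05 and 77.0 ± 9.86 CPM. *Rb1* had 48.7 ± 11.4 and 45.2 ± 10.4 CPM (SD, n = 3). No message of these 2 lists thus passed the test in either direction. Groups did not overlap, with miRNA-26b-/- higher, in 1 of the 6 substrates and 0 of the 7 turnover genes, against 5.65% of all genes tested.

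The polymerase tail is phosphorylated by cyclin-dependent kinases and cleared by other phosphatases besides the small ones. Of 17 genes of CTD kinases and other CTD phosphatases, 0 were higher and 1 was lower at an unadjusted p under 0.05, and the median log2 fold change was -0.02. The gene was *Cdk13*, a CTD kinase that acts with cyclin K, at 30.2, 32.8 and 41.7 CPM in miRNA-26b-/- mice and 61.1, 51.3 and 58.0 CPM in miRNA-26b+/+ mice. The groups lay well apart, and the log2 fold change was -0.70 with a standard error of 0.21, an unadjusted p of 0.00394 and an adjusted p of 0.731 (edgeR). The unadjusted p was under 0.05 in 16 of 16 alternatives, with log2 fold changes of -0.85 to -0.62. A count of 1 lower gene in 17 is read against the 3.07% of all genes tested, and is no result about the list. Groups did not overlap in 2 of the 17 with miRNA-26b-/- higher and in 2 with it lower, against 5.65% and 5.88% of all genes. *Polr2a*, which encodes the large subunit that carries the tail and is named after its values were seen, also had groups that did not overlap, at 81.5, 96.8 and 92.4 CPM against 104, 99.3 and 121 CPM, with an adjusted p of 0.844 (edgeR).

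The genes that REST represses in other tissues gave the largest differences of the lists, and 15 of the 24 neuronal genes were highest in 1 library, M2627. Of 24 REST-repressed neuronal genes 16 passed the filter on low counts, 5 were higher and 0 lower at an unadjusted p under 0.05, against 3.4% and 3.07% of all genes, and 0 passed after adjustment. *Syt4*, a synaptotagmin of secretory vesicles, had 0, 32 and 5.5 CPM in miRNA-26b-/- mice and 0, 2.11 and 0 CPM in miRNA-26b+/+ mice. *Snap25*, a SNARE protein of the synapse, had 0.742, 25.2 and 0.993 CPM against 0, 2.51 and 0 CPM. *Tubb3*, the neuronal tubulin, had 0.547, 50 and 1.56 CPM against 0, 8.93 and 0 CPM. In all 3 the highest miRNA-26b-/- value was that of M2627 and the highest miRNA-26b+/+ value that of M2630.

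*Scg2*, a granin of dense-core vesicles, had 1.45, 13.1 and 0 CPM in miRNA-26b-/- mice against 0, 1.68 and 0 CPM in miRNA-26b+/+ mice, again highest in M2627 and M2630. The exception was *Syn1*, a synapsin, with 6.64, 9.12 and 4.11 CPM against 2.87, 1.06 and 4.04 CPM. It too was highest in M2627, but it was lowest in M2630. It was the one gene of the list whose groups did not overlap, though they nearly touched at 4.11 and 4.04 CPM. Its unadjusted p was under 0.05 in 6 of 16 alternatives, and the losses included the fits without M2626, M2627, M2629 or M2630. Log2 fold changes of these 5 genes were 1.32 (*Syn1*) to 4.36 (*Syt4*), with adjusted p-values of 0.731 (*Syt4*) to 0.764 (*Syn1*) by edgeR's quasi-likelihood test. The sympathetic neuron markers moved in the same libraries: 10 of 10 were highest in M2627, and their summed level was 9.73, 277 and 20 CPM in miRNA-26b-/- mice and 17.6, 44.5 and 13.2 CPM in miRNA-26b+/+ mice. The 9 Schwann cell markers had sums of 235, 212 and 150 CPM in miRNA-26b-/- mice and 50.6, 75 and 104 CPM in miRNA-26b+/+ mice. These groups did not overlap, as those of *Syn1*, *Ctdsp1* and *Ctdspl* did not, and the part of Schwann cells in the values of these genes was not tested. Summed over the 24 REST-repressed neuronal genes, levels were 150, 366 and 154 CPM in miRNA-26b-/- mice and 126, 183 and 158 CPM in miRNA-26b+/+ mice, so that apart from M2627 the groups overlapped. The median log2 fold change of the list was 0.75 with all libraries and 0.16 over the 15 genes still tested without M2627. The number with an unadjusted p under 0.05 was 1 without M2627, 1 without M2629 and 2 without M2631. The 1 left without M2627 was none of the 5 genes named above. Their unadjusted p-values were then 0.15 (*Syt4*) to 0.922 (*Snap25*) by edgeR's quasi-likelihood test. Without M2627 and M2630 only 10 of the genes passed the filter, and *Syt4*, *Snap25*, *Tubb3* and *Scg2* were not among them. Over these 10 the median was 0.00, against 0.17 with all libraries, and 0 had an unadjusted p under 0.05, against 1 (*Syn1*) with all libraries. In whole tissue, more cells of a type and more RNA per cell cannot be told apart.

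**Figure D5:**
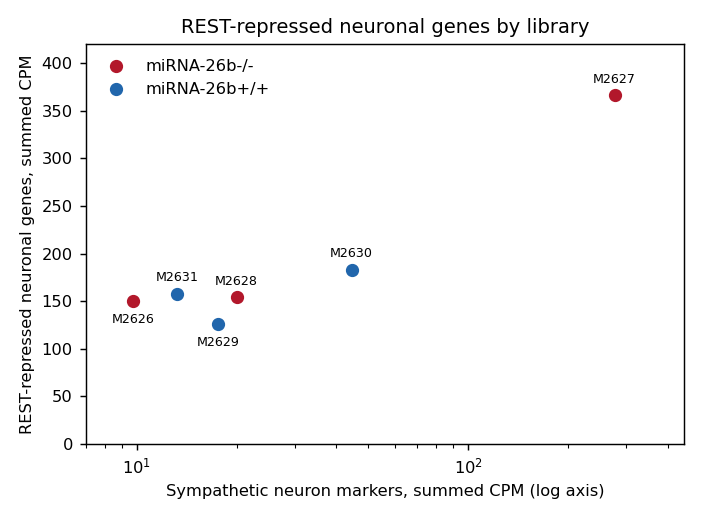
Summed level of 24 REST-repressed neuronal genes (y axis, CPM) against the summed level of 10 sympathetic neuron markers (x axis, CPM, log axis), 1 point per library. M2627 lies alone at 277 and 366 CPM, M2630 is next at 44.5 and 183 CPM, and the other 4 libraries, 2 of each genotype, lie between 126 and 158 CPM on the y axis.

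*Rest* was lowest in M2630 and next to lowest in M2627, the 2 libraries with most neuronal signal, and highest in M2628. M2629 had nearly the same *Rest* level as M2627, 24.1 against 23.5 CPM. Their sums of the REST-repressed neuronal genes were 126 CPM, the lowest, in M2629 and 366 CPM in M2627. M2628 had a sum of 154 CPM and M2626 one of 150 CPM. The relation of *Rest* to these sums was not tested. Of the 6 listed REST-repressed genes of heart and smooth muscle 4 were tested, with a median log2 fold change of 0.04. It was 0.65 without M2629. With no filter on low counts it was -0.46, but a further listed gene entered there, so this median is not over the same genes. *Hcn4*, a pacemaker channel, was the 1 gene higher at an unadjusted p under 0.05 (3.4% of all genes tested), with 2.38, 5.25 and 2.8 CPM in miRNA-26b-/- mice and 0.914, 1.02 and 0.927 CPM in miRNA-26b+/+ mice. The groups did not overlap, which held for 5.65% of all genes tested, the log2 fold change was 1.92 with a standard error of 0.78, and the adjusted p was 0.736 (edgeR). The unadjusted p was under 0.05 in 8 of 16 alternatives. It was not without M2627, M2629, M2630 or M2631, nor without M2627 and M2630 together. It was also not with limma voom, the earlier quasi-likelihood method or the likelihood ratio test. *Hcn4* was highest in M2627. Cardiac muscle markers were at 450 and 457 CPM in M2627 and M2630 against 126 to 165 CPM elsewhere, and their part in the *Hcn4* result was not tested.

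The RE1 element is built of a left and a right motif, searched here as TTCAGCACC and GGACAGC on both strands of a fixed window around each start in the RefSeq promoter table, most of it before the start. The left motif was in 4 of 29 promoters of 21 REST-repressed genes (13.8%) and in 0.371% of 32851 promoters. The right motif was in 13.8% and 6.56%. The genes were listed as repressed by REST, which binds this element. A higher share can thus come from the choice of list and is no result of these libraries. *Scg2* held both motifs side by side at its start, and *Syn1* held the left one. These 2 stretches are shown because they carry the letters searched for. A match of letters is not a site shown to bind REST. Both are from GRCm38.p6, on the strand of the gene, with the left motif in capitals. In *Scg2* the left motif reads on the opposite strand.
*Scg2*, chr1:79440015-79440044, minus strand: aggagctgtccGGTGCTGAAacggcccgag
*Syn1*, chrX:20921132-20921161, minus strand: gcactgtcggaTTCAGCACCgcggtcagag

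Elsewhere the motifs were found in *Unc13a*, *Celsr3*, *Gria2* and *Tubb3*. *Unc13a*, a vesicle priming protein with both motifs in its promoter, had 43.6, 46.2 and 31.5 CPM against 30.2, 41.3 and 49.2 CPM, so the groups overlapped. *Gria2*, a subunit of glutamate receptors, had 1.01 CPM in M2627 and 0 in the other 5 libraries. Genes with the letters of a motif were therefore found at widely different levels in the aorta.

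Genes around the 3 hosts were examined because the deletion lies at *Ctdsp1*. Within 100 kb of *Ctdsp1*, 5 of 9 annotated genes were tested, 0 had an unadjusted p under 0.05 in either direction, and 0 had groups that did not overlap. Over all genes tested 6.46% had such a p, and 5.65% and 5.88% had no overlap, so that few or none would be met among 5 genes. *Slc11a1*, a metal transporter of macrophages that ends 5447 bp before *Ctdsp1*, had 2.42, 7.12 and 24.1 CPM against 7.67, 11.8 and 7.54 CPM, and M2628, its highest library, also had the most macrophage marker signal, 845 CPM against 296 to 566 CPM. *Usp37*, a deubiquitinase, had 13.3 ± 2.03 and 18.2 ± 4.26 CPM, *Tmbim1* 169 ± 13.5 and 162 ± 5.13 CPM and *Pnkd* 19.7 ± 5.61 and 18.5 ± 6.86 CPM (SD, n = 3). *Catip* was at 0 in the 3 miRNA-26b-/- libraries and at 1.14, 0 and 1.29 CPM in the miRNA-26b+/+ libraries.

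Around *Ctdspl* 5 of 8 annotated genes were tested. *Itga9*, an integrin chain of smooth muscle, was lower at an unadjusted p of 0.0445, with 860, 912 and 899 CPM in miRNA-26b-/- mice against 952, 1060 and 1240 CPM in miRNA-26b+/+ mice, and an adjusted p of 0.756 (edgeR). Of the libraries, only the absence of M2629 left the unadjusted p under 0.05. It ends 25450 bp before *Ctdspl*, whose own values went the other way. The groups of *Itga9* did not overlap, and those of the other 4, *Gm2415*, *Gm16295*, *Vill* and *Plcd1*, did. The 1 lower gene of 5 is read against 3.07% of all genes tested by p and 5.88% by groups that did not overlap. So small a count is no result about these neighbours. *Gm2415* is antisense to *Ctdspl* and shares 3 bp of exon with it, and reads were counted without strand.

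Around *Ctdsp2* 10 of 17 annotated genes were tested. *Avil*, an actin regulator of neurons that starts 734 bp after *Ctdsp2*, was higher at an unadjusted p of 0.0384 with 1.64, 12.6 and 1.31 CPM against 0.49, 2.59 and 0.728 CPM. It was highest in M2627 and then in M2630, as the sympathetic neuron markers were, and its adjusted p was 0.746 (edgeR). Without M2627 its log2 fold change of 2.20 became 0.26. *Cdk4*, a cell cycle kinase, had 87.3, 87.5 and 82.8 CPM against 78.8, 63.2 and 79.3 CPM, and *Agap2*, a GTPase-activating protein, 1.64, 1.01 and 0 CPM against 1.86, 2.7 and 5.66 CPM. In neither did the groups overlap, and neither had an unadjusted p under 0.05. Of the 10 genes, 1 was higher at such a p, where 3.4% of all genes tested were. Groups did not overlap in 1 gene that was higher and 1 that was lower, against 5.65% and 5.88% of all genes tested. These counts are no result about the neighbours. The remaining 7 overlapped between the genotypes: *Os9*, *Tspan31*, *Tsfm*, *Mettl1*, *March9*, *Atp23* and *Mir546*. *Mir546* lies in the exons of *Ctdsp2* over 121 bp, so that its 28.9 ± 5.5 CPM in miRNA-26b+/+ mice and 22.1 ± 1.77 CPM in miRNA-26b-/- mice are reads counted for *Ctdsp2* as well.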

How the data were processed

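The authors aligned reads with STAR to GRCm38 and deposited a count of reads per gene name from featureCounts 1.6.4 over exons. Strand was ignored, and each gene under a read received it. The file header names GENCODE release M21. A second table, with log2 CPM, fold changes and p-values from the authors' own comparison, was not used. Genes entered the test if their counts summed to 2 or more and if 2 or more libraries exceeded 1 CPM. Scaling was by TMM, and edgeR 4.0.16 (R 4.3.3, prior count 0.125) gave the quasi-likelihood test, without covariates, as the labels give no batch or pair. P-values were adjusted by Benjamini-Hochberg across every gene tested. Libraries were grouped by the labelled genotype. The p-values of the fits set the difference between the groups against the spread between libraries within a group. Single values were compared by exact permutation over the 20 divisions of the libraries. RPKM used the union of annotated exons. Apart from 1 and 121 bp in *Ctdsp2*, 3 bp in *Ctdspl*, 92 bp in *Ctdspl2* and 53 bp in *Rcor1*, no exon of the 6 genes overlapped another gene. The procedure was tested on simulated counts.

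The genes named are the 6 genes, the 3 hairpins, genes within 100 kb of the hosts, genes of each list with an unadjusted p under 0.05 or otherwise its 2 most abundant, and the 3 genes closest in pattern to each host and to *Rest* among those with at least 10 CPM. *Kdm1a*, *Polr2a*, *Unc13a*, *Gria2* and *Celsr3* were named after their values were seen. The genes and lists were chosen with earlier results of these data known. Alternatives were the scaling, the test (DESeq2 1.42.0, limma 3.58.1 voom, edgeR's likelihood ratio and earlier quasi-likelihood methods), the filter, and leaving out libraries. The value of 1 gene of the lists is not reported here.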

Additional observations from a re-analysis of the deposited data

How the results depend on the processing

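Across 16 alternatives the 6 genes gave 96 log2 fold changes, 0 of which had an adjusted p under 0.05. Direction turned in 5 of them: *Rcor1* was 0.00 (0.000364) with library size alone, 0.00605 without M2626, 0.19 without M2628 and 0.24 without M2629, and *Ctdspl2* was -0.23 without M2631. Leaving out 1 library in turn gave -0.28 to 0.24 for *Rcor1* and -0.23 to 0.59 for *Ctdspl2*. The share of *Ctdsp1* was 0.604 percentage points higher in miRNA-26b-/- mice with all libraries, -0.0681 without M2628 and -0.375 without M2629 (range -0.375 to 1.5), and that of *Ctdspl2* was -0.0749 and became 0.265 without M2630 (range -0.387 to 0.265). That of *Ctdsp2* ranged from -2.32 to -0.913 and that of *Ctdspl* from 0.632 to 2.04. The cause was not tested.

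The number of genes with an adjusted p under 0.05, 1 in all, was 57 with DESeq2, 19 with the likelihood ratio test, 3 with limma voom, 0 with the earlier quasi-likelihood method, 0 without M2627 and M2630, and 0 to 82 with 1 library left out, the 82 being without M2628. The number with an unadjusted p under 0.05, 1035 in all, was 607 without M2627 and M2630, and 686 (without M2631) to 1692 (without M2628) with 1 library left out. The 2 libraries had been chosen with earlier results known.

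The REST-repressed neuronal genes with an unadjusted p under 0.05 numbered 0 with the likelihood ratio test, the earlier quasi-likelihood method, DESeq2 and limma voom, and without M2627 *Tubb3* turned to -1.37. Alternatives for single genes of the lists were added after seeing the data. Of the 6 genes, *Ctdspl2* and *Rest* had the fewest counts. No paired analysis was possible because the labels give the mice no replicate numbers or pairs.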
